A study of Mus musculus with 24 samples.

Results

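Steap1, Fap, Baiap2l1 and Rbm47 were 4 genes whose hippocampal mRNA was lower on every MS5 array than on every untreated control (Con) array for a probeset of each gene, and they were chosen by that separation of the log2 levels. They were measured by 5 of the 55681 probesets of an Agilent mouse array, 1 each for Steap1, Fap and Baiap2l1 and 2 for Rbm47. All probesets that carry these gene names were kept, so the second Rbm47 probeset is included although its groups overlapped. Because the MS5 and Con arrays chose the genes, their difference is described without a test.

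The study asked how repeated morphine given to stressed neonatal mice changes hippocampal mRNA. All pups were labelled as C57BL/6 males and were killed at P9, and treatment began at P5. The Con group received 0 mg/kg morphine, was housed normally and was handled little, and these pups were littermates of treated pups. The MS2 and MS5 groups received morphine at 2 and 5 mg/kg, and both were also isolated from the dam in a warmed cup and exposed to nitrogen and then oxygen to mimic apnea. Con pups had neither morphine nor stress, so morphine and stress cannot be told apart in a difference from Con. By design MS2 and MS5 differed only in dose, but arrays of both groups stood apart in other ways, as given below. Each array held RNA from the pooled left and right hippocampi of 1 animal, with 5 animals per group, and arrays are named here by group and animal number.

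The proteins differ in kind. Steap1 is a membrane protein of the STEAP family, whose other members reduce iron and copper at membranes. Fap, fibroblast activation protein, is a cell surface serine protease that cleaves after proline and is known from activated fibroblasts. Baiap2l1 is an adaptor with an I-BAR domain that curves membranes and connects them to actin in epithelial protrusions. Rbm47 is an RNA-binding protein of epithelia and a cofactor of the Apobec1 enzyme in C-to-U editing of mRNA. The choroid plexus, an epithelium that secretes cerebrospinal fluid, lies in the ventricles beside the hippocampus, and its marker genes were therefore followed on the same arrays.

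The probes are shown by their first 30 bases, because each value below is the brightness of 1 such oligonucleotide of 60 bases. The file annotation places the Steap1 probe (NM_027399) at chr5:5736369-5736428, the Fap probe (NM_007986) at chr2:62339002-62339060, the Baiap2l1 probe (NM_025833) at chr5:145025797-145025856, and the Rbm47 probes (NM_178446) at chr5:66409926-66409985 and chr5:66410159-66410218, all on the minus strand of mm9. Steap1, Rbm47 and Baiap2l1 thus share chromosome 5. The starts of the Rbm47 probes lie 233 bases apart on the same transcript, so these probesets are not independent measures of different genes. None of the 5 shares a stretch of 20 bases with any other probe of the array.
Steap1 probe: ctccaggttgtagaactactgtttgcacat
Fap probe: cacaatgttttatcacctgttcattgccgg
Baiap2l1 probe: gcttatcagattctcagatctcaccgagaa
Rbm47 probe, main: cacccgcgcatctagggaactattttgaaa
Rbm47 probe, second: cgttcatacatttctaaaagacttgcgacg

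The promoters, 250 bases before to 50 after the annotated start, are shown for Steap1 and Baiap2l1. Of the 4 genes this pair had the highest Pearson r across arrays (0.91). The other pairs moved together too, with r of at least 0.79, so this does not set the pair apart. The promoter reference held none for Fap. In RefSeq GRCm38.p6 the Steap1 promoter is chr5:5749268-5749567 and that of Baiap2l1 is chr5:144358063-144358362, both on the minus strand and written 5′ to 3′ in the direction of transcription. Capitals mark GGGCGG on either strand, the core of the GC box that Sp1 family factors recognise. The Steap1 promoter held 1 match and the Baiap2l1 promoter 6, of which neighbouring matches can overlap, and 35.7% of 32851 promoters of that length held at least 1. Both were rich in CpG, with 33 CpG pairs for Steap1 and 25 for Baiap2l1 against a median of 7 over all promoters. Of the 3 Rbm47 promoters 1 held the motif, with 3 to 14 CpG pairs, and TATAAA was present in none of these 5 promoters against 13.6% of all. A match of letters is a description of the sequence and no evidence of binding.
Steap1 promoter: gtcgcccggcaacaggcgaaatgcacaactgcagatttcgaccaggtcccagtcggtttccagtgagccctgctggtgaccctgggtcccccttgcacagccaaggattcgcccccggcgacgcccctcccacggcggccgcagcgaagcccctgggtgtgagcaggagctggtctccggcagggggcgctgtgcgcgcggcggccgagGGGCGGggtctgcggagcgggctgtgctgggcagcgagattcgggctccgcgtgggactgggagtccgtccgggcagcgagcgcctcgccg
Baiap2l1 promoter: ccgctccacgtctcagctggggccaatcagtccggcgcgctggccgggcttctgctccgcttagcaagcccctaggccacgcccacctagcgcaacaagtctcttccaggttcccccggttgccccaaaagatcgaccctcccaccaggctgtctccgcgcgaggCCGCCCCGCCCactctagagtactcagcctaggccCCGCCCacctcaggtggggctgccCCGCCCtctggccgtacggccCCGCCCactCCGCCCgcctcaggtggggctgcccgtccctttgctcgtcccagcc

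The arrays held 1 spot for each of the 5 probesets. Every one of these spots was well above background on all 15 arrays, none was saturated, and none was flagged as an outlier by the scanner software. Levels are log2 of the spot intensity after background adjustment, with an offset of 50 added, and quantile normalization. A difference of 1 is a 2-fold change of this adjusted intensity, and percentages of the Con intensity below refer to it. The offset makes differences between dim spots smaller than those of the signal without it. Each level compares the same probe between arrays and says nothing about one gene against another.

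Several arrays stood apart and are named before the values. MS5 9, labelled male, had an Xist level of 11.34 against 5.89 to 6.08 on the other 14 arrays and a Ddx3y level of 6.24 against 11.01 to 11.45, which goes against its label. MS2 5 was dim, with a median spot signal of 58.2 against 121 to 154 elsewhere. On MS2 4 the mean of 10 hippocampal neuron markers was 10.11 against 11.50 to 12.29 on the other 14 arrays, and that of 10 hypothalamus and thalamus markers was 10.74 against 8.02 to 9.72. The headers gave 2 scan dates, for 8 and 7 arrays, and each held all 3 groups. Arrays that share a scan date are called a slide here, as no slide label was read. Values without these arrays or within each slide are given beside the results they touch.

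Steap1 had the largest fall of the 4. Its level was 10.25, 11.20, 11.06, 10.66 and 10.88 on Con 15, 16, 17, 18 and 19. It was 10.51, 10.67, 9.96, 10.66 and 10.16 on MS2 1, 3, 4, 5 and 7. It was 10.24, 8.63, 10.21, 9.57 and 7.97 on MS5 8, 9, 12, 13 and 14. MS5 8 and MS5 12 lay just under the lowest control, Con 15, by as little as 0.0082, whereas MS5 9 and MS5 14 lay far below every other array. The means were 10.81 ± 0.37 in Con, 10.39 ± 0.32 in MS2 and 9.32 ± 1.00 in MS5 (SD, n = 5 each). The fold change (log2) of MS5 against Con was -1.49 (SE 0.37), or 35.7% of the Con intensity. It was -1.31 without MS5 9 and -1.15 without MS5 14. Within slide 1, which held MS5 8 and 13, it was -0.75, and within slide 2, which held MS5 9, 12 and 14, it was -2.11.

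Fap was separated by a wider margin of 0.0941. The Con levels were 10.15, 10.90, 11.03, 10.50 and 10.53, the MS2 levels 10.62, 10.60, 9.65, 10.64 and 10.38, and the MS5 levels 9.86, 9.54, 10.02, 10.05 and 8.59, in the same order of animals. The MS5 arrays other than MS5 14 lay between 9.54 and 10.05, and the MS2 arrays other than MS2 4 lay within the Con range. Means were 10.62 ± 0.35 in Con, 10.38 ± 0.42 in MS2 and 9.61 ± 0.61 in MS5 (SD, n = 5 each). The fold change (log2) of MS5 against Con was -1.01 (SE 0.27), which is 49.7% of the Con intensity. It was -0.99 without MS5 9, -0.75 without MS5 14, -0.60 within slide 1 and -1.33 within slide 2.

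Baiap2l1 had the widest margin, 0.1478, between the lowest Con and the highest MS5 array. Its Con levels were 7.70, 8.26, 8.18, 7.99 and 7.84. Its MS2 levels were 7.80, 7.94, 7.54, 7.55 and 7.52, and its MS5 levels were 7.48, 6.85, 7.56, 7.31 and 6.69. The MS2 arrays spanned the gap: MS2 4, 5 and 7 fell below every control, while MS2 1 and MS2 3 lay among the controls. Means were 8.00 ± 0.23 in Con, 7.67 ± 0.19 in MS2 and 7.18 ± 0.39 in MS5 (SD, n = 5 each). The fold change (log2) of MS5 against Con was -0.82 (SE 0.16), or 56.7% of the Con intensity. With an offset of 0 it was -1.15. It was -0.73 without MS5 9, -0.70 without MS5 14, -0.56 within slide 1 and -1.02 within slide 2.

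For Rbm47, the main probeset read 7.51, 8.03, 7.99, 7.86 and 7.74 in Con, 7.94, 7.83, 7.32, 7.58 and 7.39 in MS2, and 7.36, 7.08, 7.50, 7.12 and 6.23 in MS5. The highest MS5 array, MS5 12, lay only 0.0047 below Con 15, the narrowest margin of the 4, and MS5 14 stood alone at the bottom. There the spot was 1.96-fold its local background, against at least 7.97-fold in Con. Means were 7.82 ± 0.21, 7.61 ± 0.27 and 7.06 ± 0.50 in Con, MS2 and MS5 (SD, n = 5 each), and the fold change (log2) of MS5 against Con was -0.77 (SE 0.20), or 58.8% of the Con intensity. It was -0.77 without MS5 9, -0.95 within slide 2 and -1.18 with an offset of 0. With the scanner's processed signal it was -1.25, and there Rbm47 and Steap1 no longer separated the groups. Without MS5 14 it was -0.56 and within slide 1 it was -0.54, both smaller than a 1.5-fold change.

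The second Rbm47 probeset did not separate the groups. It read 8.88, 9.73, 9.78, 8.99 and 9.11 in Con, 9.41, 9.60, 8.87, 8.78 and 8.91 in MS2, and 9.01, 7.72, 9.11, 8.62 and 7.10 in MS5. MS5 8 and MS5 12 lay within the Con range, and the other 3 MS5 arrays lay below it. The fold change (log2) of MS5 against Con was -0.99 (SE 0.35), with -0.84 without MS5 9, -0.68 without MS5 14, -0.40 within slide 1 and -1.45 within slide 2. Deviations from the group means of the Rbm47 probesets had a Pearson r of 0.89 and a Spearman rho of 0.83 over the 15 arrays, a description only, since both read the same transcript.

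**Figure D1:**
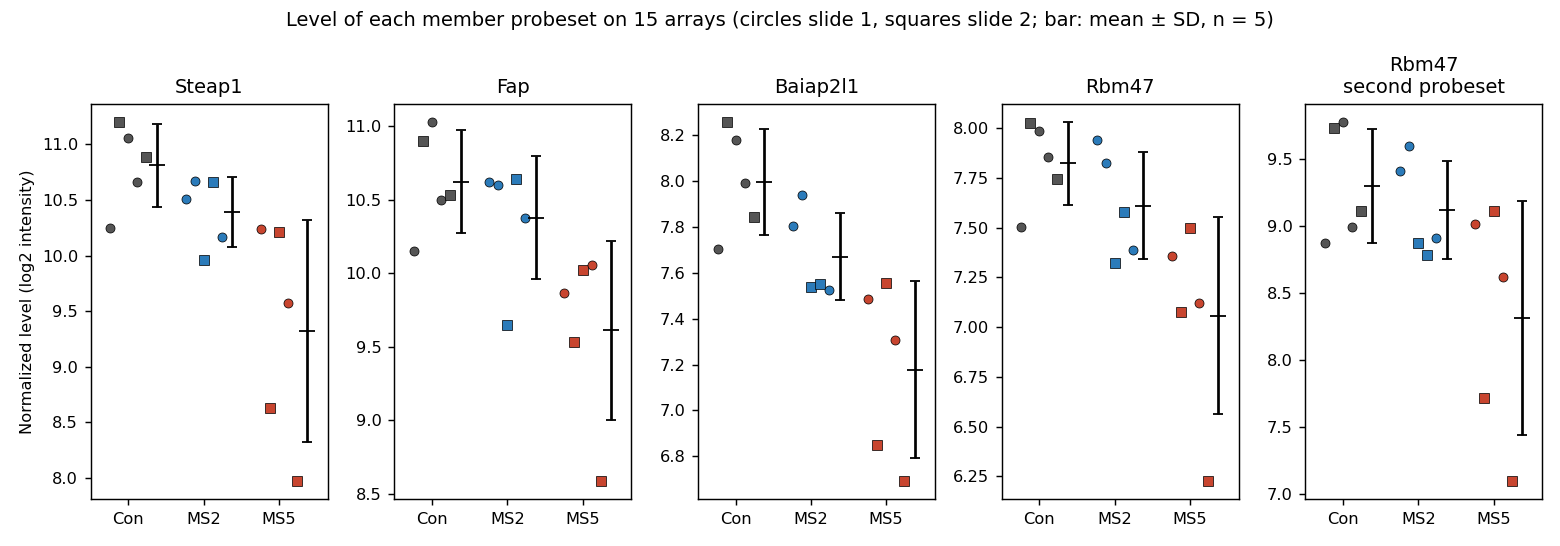
Normalized level (log2 intensity, a separate axis range for each panel) of the 5 probesets on 15 arrays, by group. Points are arrays, circles on slide 1 and squares on slide 2, and bars give the mean ± SD of 5 arrays. For Steap1, Fap, Baiap2l1 and the main Rbm47 probeset all red MS5 points lie below all grey Con points, MS5 14 is the lowest in each panel, and the second Rbm47 probeset overlaps.

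The same arrays marked the edges of the groups for all 4 genes. Con 15 was the lowest control for Steap1, Fap, Baiap2l1 and the main Rbm47 probeset, and MS5 14 was the lowest MS5 array for all 4. Among MS2 arrays, MS2 4 was lowest for 3 of the genes and MS2 7 for Baiap2l1.

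In MS5 against Con, the differences of all 5 probesets exceeded 1.5-fold, and 4 of the 5 did not overlap. Over all probesets 0.526% had all MS5 arrays below all Con arrays. The study's threshold, over 1.5-fold with an unadjusted p under 0.05, called 0.183% of all probesets lower and 0.228% in either direction. The rule used this contrast, so nothing is read from these counts. Among the 102 probesets called lower, 9 had no overlap between MS5 and Con. In order of size they were Steap1, Ins1 at -1.02, Fap, Baiap2l1 and Rbm47. Just outside the 4 genes followed Ap1s2 at -0.76, Tuba1c at -0.74, Defb35 at -0.72 and Gpnmb at -0.63. This order depends on the offset of 50. With an offset of 0, Rbm47 (-1.18) and Baiap2l1 (-1.15) fell further than Fap (-1.07). Just outside separation were Frem1 (-0.63) and Slc22a19 (-0.87), whose lowest Con array minus highest MS5 array was -0.0109, and Wdr86 (-1.30), where it was -0.0854.

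Whether the lower dose showed the same shift was asked with the MS2 arrays, which had no part in choosing the genes. The Con arrays did have a part, so the p-values of this contrast are not free of the choice. The MS2 means of all 5 probesets were lower than the Con means, but none passed the threshold and none separated the groups. Baiap2l1 came nearest, with a fold change (log2) of -0.32 (SE 0.16), all 5 MS2 arrays below the Con mean, and a limma p of 0.0671 (adjusted p 0.970). Its exact two-sided permutation p was 0.0476. For Steap1 the fold change (log2) was -0.42 (SE 0.37), with all 5 MS2 arrays below the Con mean and an exact permutation p of 0.103. For Fap it was -0.24 (SE 0.27), with an exact permutation p of 0.381, and it shrank to -0.06 without MS2 4. For the main Rbm47 probeset it was -0.21 (SE 0.20), with an exact permutation p of 0.19. For the second Rbm47 probeset it was -0.18 (SE 0.35), with an exact permutation p of 0.492, and it was 0.09 within slide 1. The adjusted limma p of these 5 probesets ran from 0.970 to 0.982, and none had an unadjusted limma p under 0.05 in the fit of 3 groups. In a fit of only MS2 and Con the unadjusted limma p was 0.0215 for Baiap2l1, 0.0556 for Steap1 and 0.15 to 0.43 for the others. For Baiap2l1 in the fit of 3 groups it was 0.0358 without Con 15 and 0.0395 without MS2 3, but 0.156 without Con 16.

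The background of this contrast was low as well. Over all probesets 0.0233% passed the threshold in MS2 against Con, 0.00718% downward, and 0.39% had all MS2 arrays below all Con arrays, so 0 of 5 probesets is what such a background gives. Without MS2 4 the differences of Steap1, Baiap2l1 and the main Rbm47 probeset were -0.31, -0.29 and -0.14. Without MS2 5 they were -0.49, -0.29 and -0.20, and that of Fap was -0.31. The direction stayed downward for the 4 main probesets within both slides, at -0.21 and -0.74 for Steap1, -0.03 and -0.57 for Fap, -0.20 and -0.51 for Baiap2l1, and -0.07 and -0.43 for Rbm47 in slides 1 and 2.

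By design the MS5 and MS2 groups shared stress and handling and differed in dose. MS5 arrays helped to choose the genes for low values, so these p-values too are not free of the choice. Steap1 was lower in MS5 than in MS2 by a fold change (log2) of -1.07 (SE 0.37), with a limma p of 0.0117 and an exact permutation p of 0.0476. Fap was lower by -0.76 (SE 0.27), with a limma p of 0.0136 and an exact permutation p of 0.0397. Both passed the threshold, as did the second Rbm47 probeset at -0.80 (SE 0.35), with a limma p of 0.0348 and an exact permutation p of 0.103. Baiap2l1, at -0.49 (SE 0.16, limma p 0.00908, exact permutation p 0.0317), and the main Rbm47 probeset, at -0.55 (SE 0.20, limma p 0.0151, exact permutation p 0.0397), stayed under 1.5-fold. The 3 probesets that passed stand beside 0.111% of all probesets that passed downward.

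No probeset separated MS5 from MS2, where 0.384% of all probesets had every MS5 array below every MS2 array. After Benjamini-Hochberg adjustment over all probesets the limma p of each of the 5 was 1.00. The count of 3 also rested on single arrays. It was 1, Steap1, without MS5 14, and 5 without MS5 12. It was 2 without MS5 9, 0 within either slide, and 0 with MS2 5 and MS5 9 both left out. In these settings the differences of all 5 probesets stayed negative, between -1.37 and -0.35.

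**Figure D2:**
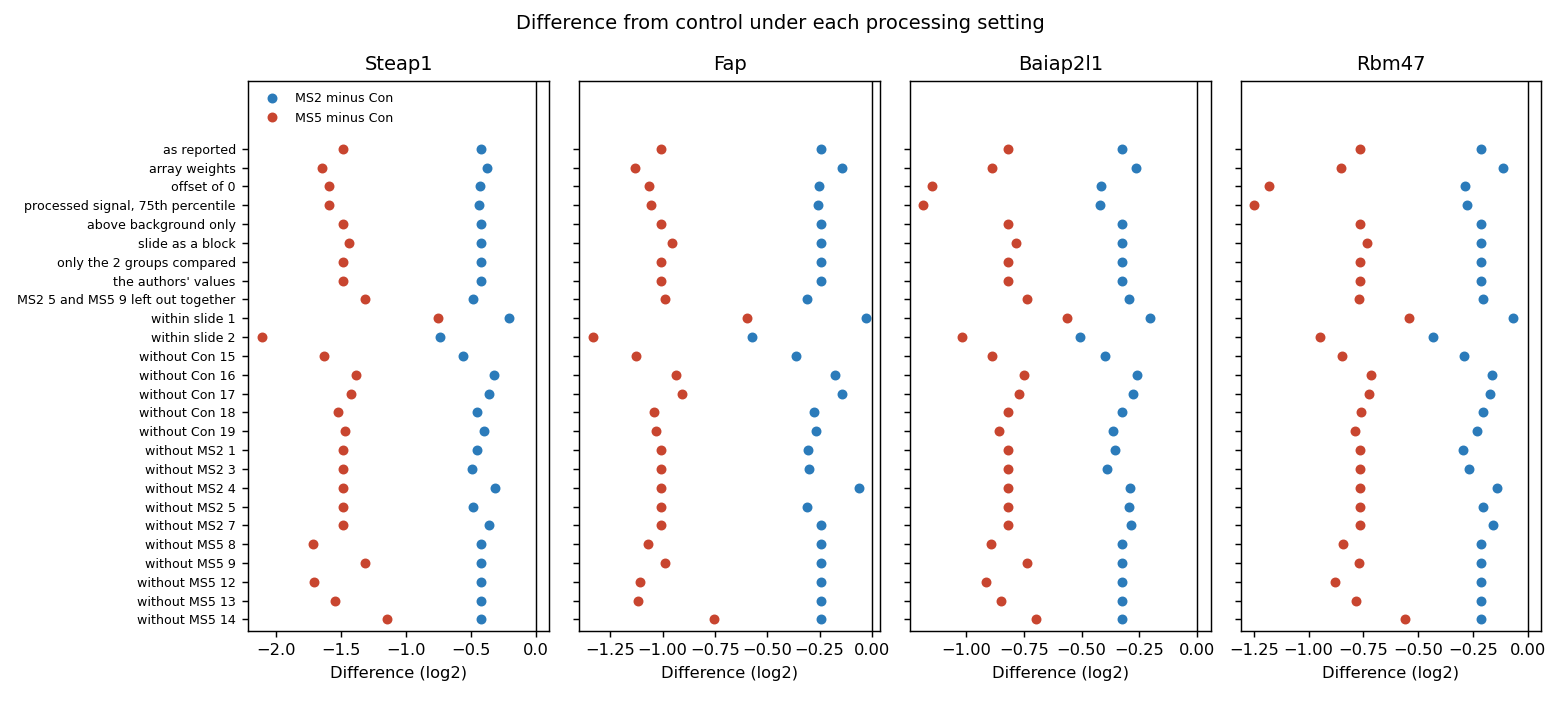
Fold change (log2) of MS2 against Con (blue) and MS5 against Con (red) for each gene's main probeset, with 1 row per way of processing the arrays or array left out, and the vertical line at 0. All points lie left of 0. For Steap1 the red points range from -2.11 in slide 2 to -0.75 in slide 1, whereas for Baiap2l1 and Rbm47 the lowest, -1.18 and -1.25, come from the processed signal, and leaving out MS5 14 moves all 4 toward 0.

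Across all probesets, limma called none at an adjusted p under 0.05 in MS2 against Con, MS5 against Con or MS5 against MS2. The smallest adjusted p were 0.970, 0.629 and 1.00, and 2324, 2176 and 2211 probesets had an unadjusted p under 0.05.

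The 4 genes varied together within groups. Deviations from the group means over the 15 arrays gave a Pearson r between 0.79 (Fap with Baiap2l1) and 0.91 (Steap1 with Baiap2l1) for the 6 pairs. Spearman's rho ran from 0.71 to 0.92. In permutations within groups, the Benjamini-Hochberg adjusted p over 50 relations was at most 0.0026 for Pearson's r and 0.0359 for Spearman's rho. Without the 2 arrays farthest from the median, always including MS5 14, r was 0.75 to 0.87, and it was 0.75 to 0.93 within slides. For this and every later r within slides, deviations were still taken from the group means over both slides. Differences between slides inside a group therefore remain in these r. The points are the same 15 animals in every pair. They include the Con and MS5 arrays that chose the genes, so the p-values of these correlations are not free of the choice.

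Marker lists of several cell types were set beside them, first the choroid plexus epithelium. The lists were chosen with earlier results of these data known, so the p-values of their correlations are not free of that choice either. The mean level of 18 such markers was 11.14, 12.03, 12.00, 11.35 and 11.61 in Con, 11.75, 11.79, 11.30, 11.28 and 11.21 in MS2, and 11.33, 9.58, 11.58, 10.84 and 8.71 in MS5. As for the 4 genes, Con 15 was the lowest control and MS5 14 the lowest MS5 array. MS5 8 and MS5 12 lay above Con 15. Over groups, deviations of Steap1 followed those of the list mean with a Pearson r of 0.96 and a rho of 0.89 (permutation p 0.00015 and 0.00052, adjusted 0.00117 and 0.006). For Baiap2l1 r was 0.94 and rho 0.89 (permutation p 6e-05 and 6e-04, adjusted 0.001 and 0.006). For Rbm47 r was 0.88 and rho 0.79 (permutation p 4e-05 and 0.00038, adjusted 0.001 and 0.006). For Fap r was 0.80 and rho 0.79 (permutation p 0.00059 and 0.00403, adjusted 0.00268 and 0.0183).

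Without the 2 farthest arrays these r were 0.92 for Steap1, 0.92 for Baiap2l1, 0.70 for Rbm47 and 0.74 for Fap. Within slides 1 and 2, with group means still over both slides, they were 0.98 and 0.96 for Steap1 and 0.91 and 0.95 for Baiap2l1. They were 0.83 and 0.89 for Rbm47 and 0.82 and 0.77 for Fap. In bulk tissue, fewer cells of a type and less RNA per cell cannot be told apart. The part of choroid plexus tissue in the differences of the 4 genes was not tested.

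**Figure D3:**
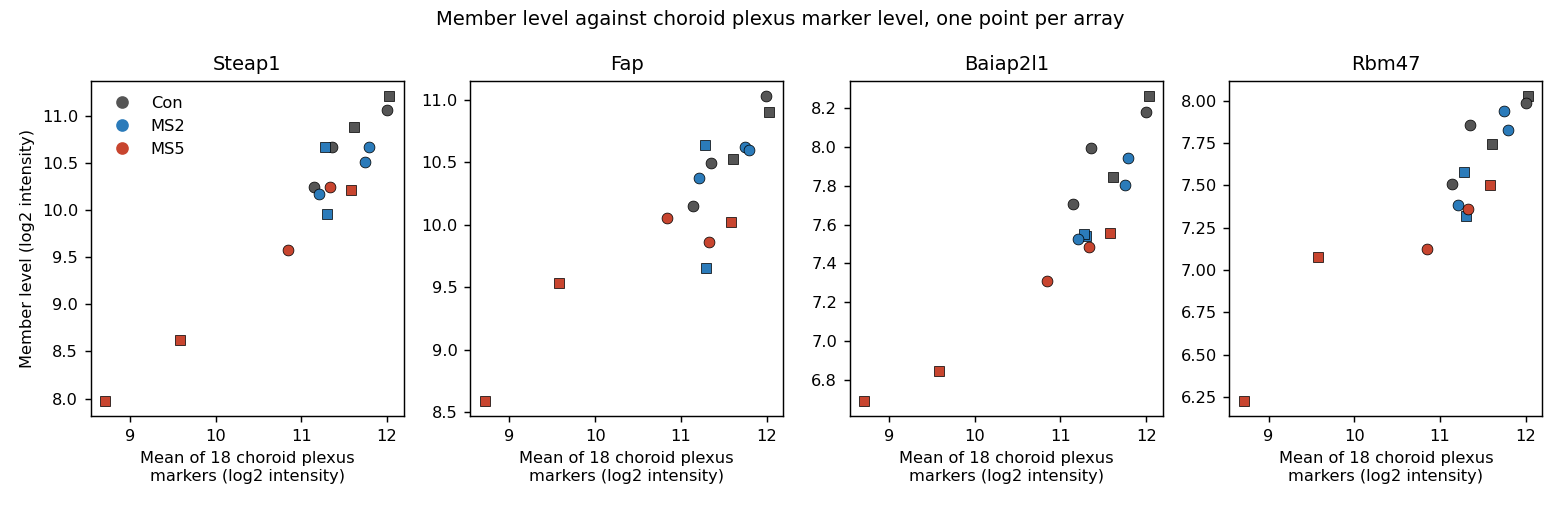
Level of each gene's main probeset (vertical axis, log2 intensity) against the mean level of 18 choroid plexus markers (horizontal axis, log2 intensity), 1 point per array, circles on slide 1 and squares on slide 2. MS5 14 and MS5 9 sit at the lower left at marker means of 8.71 and 9.58, while MS5 8 and MS5 12 have marker means within the Con range of 11.14 to 12.03.

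Fap, a fibroblast protein by name, was set beside markers of meninges and fibroblasts. Its r with the mean of those 15 markers was 0.33 and its rho 0.42 (permutation p 0.254 and 0.166, adjusted 0.41 and 0.332). For Steap1, Baiap2l1 and Rbm47 the r with this list were 0.04, 0.29 and 0.37 and the rho 0.13, 0.30 and 0.48, with adjusted permutation p from 0.222 to 0.946.

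The choroid plexus was not the only list with high correlations. With the mean of 12 genes of other epithelia, r was 0.81 for Steap1, 0.89 for Baiap2l1, 0.81 for Rbm47 and 0.66 for Fap, and rho was 0.79, 0.86, 0.81 and 0.67. The adjusted permutation p of these r were 0.0159, 0.001, 0.00479 and 0.0605, and those of rho ran from 0.00625 to 0.0425. In this list the keratins Krt8 and Krt18 spread most in MS5, with SDs of 1.13 and 1.15, and Cdh1 followed at 0.49. Of the 12 genes 9 were well above background on all arrays. The part of the keratins in these correlations was not tested. Ependymal markers, from the ciliated lining of the ventricles, gave r of 0.81 for Steap1, 0.77 for Baiap2l1 and 0.67 for Rbm47, and rho of 0.83, 0.75 and 0.72, with adjusted permutation p from 0.00481 to 0.0425. For Fap the ependymal r was 0.67 (adjusted permutation p 0.0406) but rho was 0.56 (adjusted permutation p 0.13). Fap also had an r of 0.60 and a rho of 0.60 with microglial and macrophage markers (adjusted permutation p 0.0341 and 0.0322). That r was 0.43 without MS5 14 and MS2 4, 0.39 within slide 1 and 0.66 within slide 2. With hippocampal neuron markers r ran from 0.07 (Steap1) to 0.42 (Fap) and the smallest adjusted permutation p was 0.274. Differences between these correlations were not tested.

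The genes whose deviations were most like each of the 4 were sought among 26872 probesets of other genes that were well above background on all arrays. For Steap1 they were Folr1, a folate receptor (r 0.98), F5, coagulation factor V (0.98), and Trpv4, a cation channel (0.98). For Baiap2l1 they were Slc4a5, a bicarbonate transporter (0.97), Krt8, a keratin of simple epithelia (0.97), and Slco1a5, an organic anion transporter (0.97). For Rbm47 they were Car14, a carbonic anhydrase (0.96), Kcnj13, a potassium channel (0.94), and Msx1, a homeobox factor (0.94). For Fap they were Vpreb1 (0.96), the homeobox gene Hoxb3 (0.94) and Plscr2 (0.94). Of these 12 genes, 6 belonged to the choroid plexus list, and none of those 6 was nearest to Fap. These r are over 15 arrays, were picked as the highest of many and are given as descriptions.

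Relatives of the 4 proteins were read from the same fit. Of 50 genes in 5 lists of family members and partners, 0 passed the threshold in MS2 or in MS5 against Con by limma, and 0 of their 78 probesets did. The share of all probesets that passed was 0.0233% in MS2 and 0.228% in MS5. In MS5 and MS2, 8 and 0 of the 50 genes had an unadjusted limma p under 0.05, beside 2176 and 2324 of 55681 probesets. The median difference of these 50 genes was -0.04 in MS5 and 0.00 in MS2, beside a median of 0.00 over all probesets in both, and 34 were lower in MS5.

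Among relatives of Steap1, the 3 metalloreductases Steap2, Steap3 and Steap4 had differences of -0.22, -0.02 and -0.28 in MS5 against Con. Steap4 was well above background on 11 of 15 arrays. It had a limma p of 0.00603 (adjusted p 1.00) and reached -1.34 with the scanner's processed signal, past the threshold. Of 16 other genes of iron and copper handling, 14 were lower in MS5 with a median of -0.10. Hfe, a regulator of iron uptake, was at -0.45, Heph, a ferroxidase, at -0.43, and the copper importer Slc31a1 at -0.27, and Tfrc, the transferrin receptor, was at -0.16. Tfrc was the 1 relative of the 50 with all MS5 arrays below all Con arrays at the probeset read here. Of all probesets 0.526% were separated in this way.

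Among relatives of Fap, 8 dipeptidyl and prolyl peptidases had a median of 0.06, with Dpp4, the closest relative, at 0.02 and Dpp9 at 0.27. Among relatives of Baiap2l1, 14 I-BAR proteins and actin partners had a median of -0.02, with Baiap2 at -0.04, Baiap2l2 at 0.07 and Mtss1 at -0.03. Among partners and relatives of Rbm47, 9 genes had a median of -0.02. Apobec1, the editing enzyme itself, was at -0.20 (SE 0.12), and A1cf, its other cofactor, was well above background on no array.

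**Figure D4:**
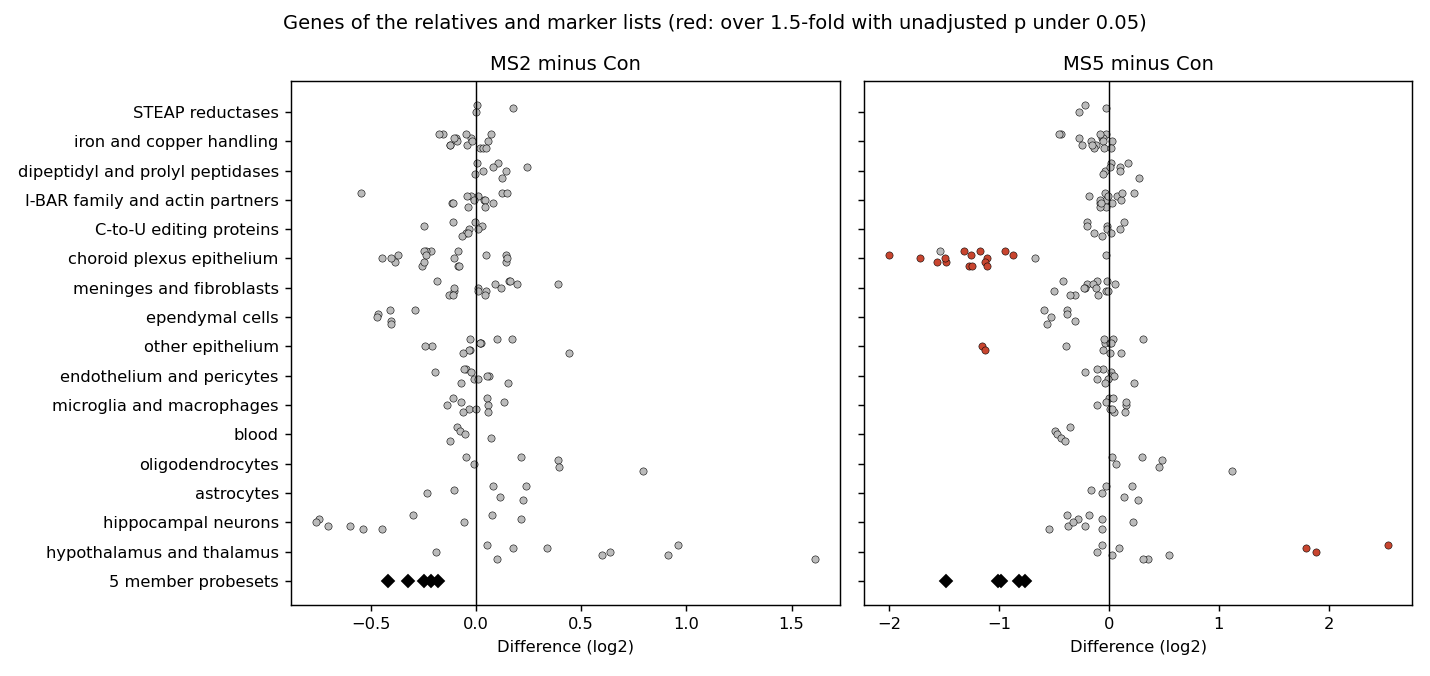
Fold change (log2) of every measured gene of the lists in MS2 against Con (left) and MS5 against Con (right), 1 circle per gene, filled red where it passed 1.5-fold with an unadjusted p under 0.05, with the 5 probesets of the 4 genes as black diamonds in the bottom row. In MS5 the 15 red choroid plexus markers lie at or below -0.87, beside the diamonds between -1.49 and -0.77, and no relative is red.

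Other marker lists place these differences beside the cells that a hippocampal dissection can hold. All 18 choroid plexus markers were lower in MS5 than in Con, 15 of them past the threshold, with a median of -1.25, and the count was 8 without MS5 9 and 1 within slide 1. Of all probesets 0.183% passed downward in this contrast. The potassium channel subunit Kcne2 was at -1.72 (SE 0.70), the water channel Aqp1 was at -1.48 (SE 0.63) and the tight junction gene Cldn2 at -1.27 (SE 0.52), each with an adjusted limma p of 1.00. In MS2 0 of the 18 passed, with a median of -0.23. The list was well above background on all arrays, its defining gene Ttr included. Of 12 genes of other epithelia, the keratins Krt8 (-1.15) and Krt18 (-1.12) passed and the median was -0.01. No gene of the meningeal, ependymal, endothelial, microglial, blood, oligodendrocyte, astrocyte or hippocampal neuron lists passed, with medians of -0.15, -0.46, -0.02, 0.03, -0.44, 0.37, 0.05 and -0.25. Of 10 hypothalamus and thalamus genes, the peptides Avp (2.53), Oxt (1.79) and Trh (1.89) passed upward, beside 25 of all 55681 probesets. The median of the 10 was 0.33. The spread of these peptides was wide, with an MS5 SD of 2.69 for Avp and 1.92 for Oxt and a Con SD of 1.41 for Trh. In the same list 2 genes were lower, Agrp (-0.06) and Prkcd (-0.11). All 10 hippocampal neuron markers were well above background on all arrays.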

How the data were processed

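Total RNA of 15 hippocampal samples was hybridised to 1-colour Agilent 8x60k arrays. The scanner files, as deposited by the authors, hold the intensity of each spot and of its local background from Agilent Feature Extraction 10.7.1.1 (from the file headers), and the authors' series table gives normexp-adjusted, quantile-normalized log2 values. The miR arrays were not used. Using limma 3.58.1 under R 4.3.3, normexp with an offset of 50 was applied to mean spot signals and local background medians, followed by quantile normalization over 62976 spots and log2, 3671 control spots were dropped, and spots of a probe were averaged to 55681 probesets. For the 5 probesets of the 4 genes the result equalled the authors' log2 values within 4.69e-09. With arrays in place of reads, precision is limited by 5 arrays per group and by the background.

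Groups came from the sample titles. Groups were compared with lmFit and eBayes in 1 fit of 3 groups with Benjamini-Hochberg adjustment over all probesets, and single probesets with exact permutation tests of 252 assignments, whose smallest p is 0.00794. Correlations used 100000 permutations within groups, whose smallest p is 1e-05. Besides strain, sex, age and dose, labels give only the group and number of each animal, so p-values measure the spread between these samples. A list gene was read by its probeset of highest mean level, and 2 ependymal genes had none. The fit was tested on simulated data with known changes. Alternatives were the authors' values, no normexp offset (0), limma's weights for arrays, processed signals from the scanner divided by each array's 75th percentile, only probesets above background, the slide as a block or alone, only the groups compared, the mean of a gene's probesets, and each array left out. Leaving out MS2 5 and MS5 9 together was chosen after the data had been seen. Named genes were the 4 genes, their neighbours at the rule's limit, the 3 nearest patterns of each, list genes past the threshold and up to 4 others per list. The 4 genes and all lists were chosen with earlier results of these data known. Promoter sequences and their build are RefSeq's.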

Additional observations from a re-analysis of the deposited data

Results flagged for a closer look

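In the MS2 group the Fap level of MS2 4, 9.65, lay apart from the other 4 arrays, which read 10.38 to 10.64. Its gap to the nearest of them was 0.736 of the group's range, past the limit of Dixon's test, which chance passes in about 1 of 20 groups. Of 18 groups examined, 5 probesets and the choroid plexus marker mean in 3 groups each, this was the only one past the limit. MS2 4 was also the array with the lowest hippocampal neuron marker mean, 10.11, and the highest hypothalamus and thalamus marker mean, 10.74. Its part in the Fap value was not tested.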

How the results depend on the processing

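Of the differences of single probesets in MS2 against Con and MS5 against MS2 under all settings, 222 kept their direction and their side of the threshold. A further 11 passed it anew, 16 no longer passed it and 1 reversed, the second Rbm47 probeset in MS2 against Con within slide 1 (0.0931). The authors' values, the filter for background, the fit of only the groups compared and arrays left out of the third group could not change a difference. In those settings only its p could move. In MS5 against Con, which has no test, all 125 differences stayed negative and moved by less than the larger SD of the Con and MS5 arrays, but 4 were smaller than 1.5-fold: Baiap2l1 (-0.56), Rbm47 (-0.54) and the second Rbm47 probeset (-0.40) within slide 1, and Rbm47 without MS5 14 (-0.56). The causes were not tested. For the separated probesets the negative sign mostly followed from the choice of the genes by this contrast. The number of separated genes in MS5 against Con was 4 under every setting but the processed signal, where it was 2, Fap and Baiap2l1. Only an offset of 0 and the processed signal could have undone the separation. The other settings left the levels unchanged or only dropped arrays, so their count was fixed by the choice of the genes. Probesets of the 4 genes past the threshold in MS5 against MS2 were 5 with array weights, an offset of 0 or the processed signal, 0 within slide 1, within slide 2 and without MS2 5 and MS5 9 together, and 1 to 5 with single arrays left out, against 3. Their count in MS2 against Con was 0 throughout. All probesets past the threshold in MS2 against Con numbered 13, and 230 with an offset of 0, 522 with the processed signal, 294 within slide 2, 36 without MS2 5 and MS5 9, and 7 to 38 without single arrays. In MS5 against Con they numbered 127, and 203 with array weights, 401 with an offset of 0, 623 with the processed signal, 391 within slide 1, and 61 to 213 without single arrays. In MS5 against MS2 they numbered 72, and 158 with array weights, 370 with an offset of 0, 592 with the processed signal, 388 within slide 1, 310 within slide 2, 38 with only the groups compared, and 15 to 106 without single arrays. The relatives went from 0 to 1 in MS5 against Con, Steap4 with an offset of 0 or the processed signal and Heph within slide 2. Choroid plexus markers past the threshold in MS5 numbered 15, and 1 within slide 1, 6 within slide 2, 8 without MS2 5 and MS5 9, and 8 to 17 without single arrays. Over all marker lists they numbered 20 in MS5, and 11 within slide 1, 8 within slide 2, 11 without MS2 5 and MS5 9, and 11 to 25 without single arrays, and in MS2 0, and 2 within slide 2. No paired analysis was possible because the animal numbers of Con, MS2 and MS5 are not shared between groups. Without the offset, the MS5 differences of the probesets with the dimmest spots over background grew most, from -0.77 to -1.18 for Rbm47 and from -0.82 to -1.15 for Baiap2l1, against -1.49 to -1.59 for Steap1 and -1.01 to -1.07 for Fap.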
